A study of Mus musculus with 17 samples.

Results

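The genes described here encode the proteins of the muscle sarcomere, in C2C12 cells that carried serum response factor (SRF) or a fusion of it. They were chosen by symbol, from a list of 43 genes for thick filament, thin filament, Z-disc, titin and M-band proteins, and 29 of the 43 have a row among the 15062 genes of the count table. C2C12 is a mouse myoblast line that forms multinucleated myotubes when serum is withdrawn; per the labels' protocols these cells were kept in growth medium with fetal bovine serum. The lines expressed pMSCV (a retroviral vector, labelled with no insert and used here as the control), SRF, SRF-FOXO1, SRF-ICA1L, SRF-PDGFRB or SRF-RELA, with 3 libraries in each group and 2 for SRF-PDGFRB, 17 in all. The labels do not say whether a line is 1 clone or a pool, nor whether replicates are separate cultures, so p-values measure the spread between these libraries, which may be technical.

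A sarcomere is the repeating contractile unit of striated muscle, in which myosin thick filaments pull on actin thin filaments that are anchored at the Z-disc. Troponin and tropomyosin on the thin filament make contraction depend on calcium, while titin runs from the Z-disc to the M-band and keeps the thick filaments centred. In muscle cells these genes are switched on late, when myoblasts leave the cell cycle and fuse, under MyoD-family factors, MEF2 factors and SRF. SRF binds a DNA element called the CArG box, and the skeletal and cardiac actin genes are among its long-studied targets.

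The promoter sequences of the members with a CArG box are shown because these were the members with a positive log2 fold change in the SRF-RELA line with all 3 libraries; without SRF-RELA replicate 2 all 4 were negative, as described further on. RefSeq promoter entries (build GRCm38.p6) were matched by symbol for 22 of the 29 genes, and the 250 bases before each start were searched on both strands. A CArG box was found in 4 of the 22 (18.2%), against 439 of 27025 genes with an entry (1.62%). The stretches below are the part of the 120 bases before the start that the GENCODE annotation does not count as exon, with the CArG box in capitals, at chr8:123894776-123894895 (minus strand), chr2:114052888-114052995 (minus), chr14:34588683-34588801 (minus) and chr17:71019437-71019520 (plus). The Actc1 and Myom1 stretches lie within longer GENCODE gene models, in introns.
Acta1: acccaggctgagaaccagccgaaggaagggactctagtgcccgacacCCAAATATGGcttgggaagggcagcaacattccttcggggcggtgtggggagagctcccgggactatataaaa
Actc1: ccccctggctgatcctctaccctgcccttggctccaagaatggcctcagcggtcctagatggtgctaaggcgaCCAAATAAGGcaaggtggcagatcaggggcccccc
Ldb3: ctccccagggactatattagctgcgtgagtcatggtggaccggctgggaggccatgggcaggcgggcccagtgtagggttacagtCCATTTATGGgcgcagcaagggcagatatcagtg
Myom1: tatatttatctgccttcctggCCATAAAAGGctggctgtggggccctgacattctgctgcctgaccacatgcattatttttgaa

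A MEF2 site, the element bound by MEF2 factors, was found in 5 of the 22 entries (Klhl41, Myh1, Myom3, Myoz2 and Ttn; 22.7%), against 3.42% of all entries. The examples below are from chr2:69670000-69670119 and chr4:135759595-135759714, both on the plus strand, with the MEF2 site in capitals. They are shown for contrast, since neither holds a CArG box.
Klhl41: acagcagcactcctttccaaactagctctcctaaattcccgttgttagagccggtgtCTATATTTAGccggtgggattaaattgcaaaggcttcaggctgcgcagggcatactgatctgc
Myom3: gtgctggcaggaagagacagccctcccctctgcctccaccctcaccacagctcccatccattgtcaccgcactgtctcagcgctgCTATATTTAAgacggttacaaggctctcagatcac
The general E-box CANNTG, read alike on both strands, was in 17 of 22 member promoters (77.3%) and in 69.3% of all. The form CAGCTG, every copy of which is also a CANNTG, was in 8 of 22 (36.4%) and in 14.7% of all. A match describes these letters in this window and is not evidence that a factor binds there.

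Before the results, some libraries have to be set apart. The library labels held for SRF itself, as Srf stood at 1670, 678 and 1030 CPM (counts relative to library size, with TMM scaling) in the SRF libraries and at 66.6, 93.8 and 83.4 in pMSCV, a log2 fold change of 3.79 (SE 0.38, edgeR adjusted p = 0.00158). In the 11 libraries of the fusion groups it ran from 70.5 to 279 CPM, and the counts do not tell a fusion from the endogenous gene. Library totals were alike, from 20901442 to 23543734 counts. The pair of SRF-PDGFRB libraries did not agree on the sarcomere genes. Replicate 2 was the highest of all 17 libraries in 18 of the 29 genes and replicate 1 the lowest in 18 of the 29, counts given with no share over all genes. The ratio of the higher to the lower of the pair had a median of 23.4 over the 22 genes that could be compared above the floor of 3 counts, against 1.33 over all such genes. Embryonic myosin heavy chain, Myh3, had 14 counts in replicate 1 and 3277 in replicate 2. In the same libraries Myog, the myogenin gene of terminal differentiation, stood at 0.23 and 85.5 CPM, and Myod1, the myoblast factor MyoD, at 5.69 and 111, where pMSCV had 61.1, 44.9 and 107 for Myod1. In the other groups the median ratio of the highest to the lowest library ran from 2.02 in pMSCV to 4.65 in SRF-RELA for these genes, and from 1.34 to 1.68 for all genes.

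**Figure D1:**
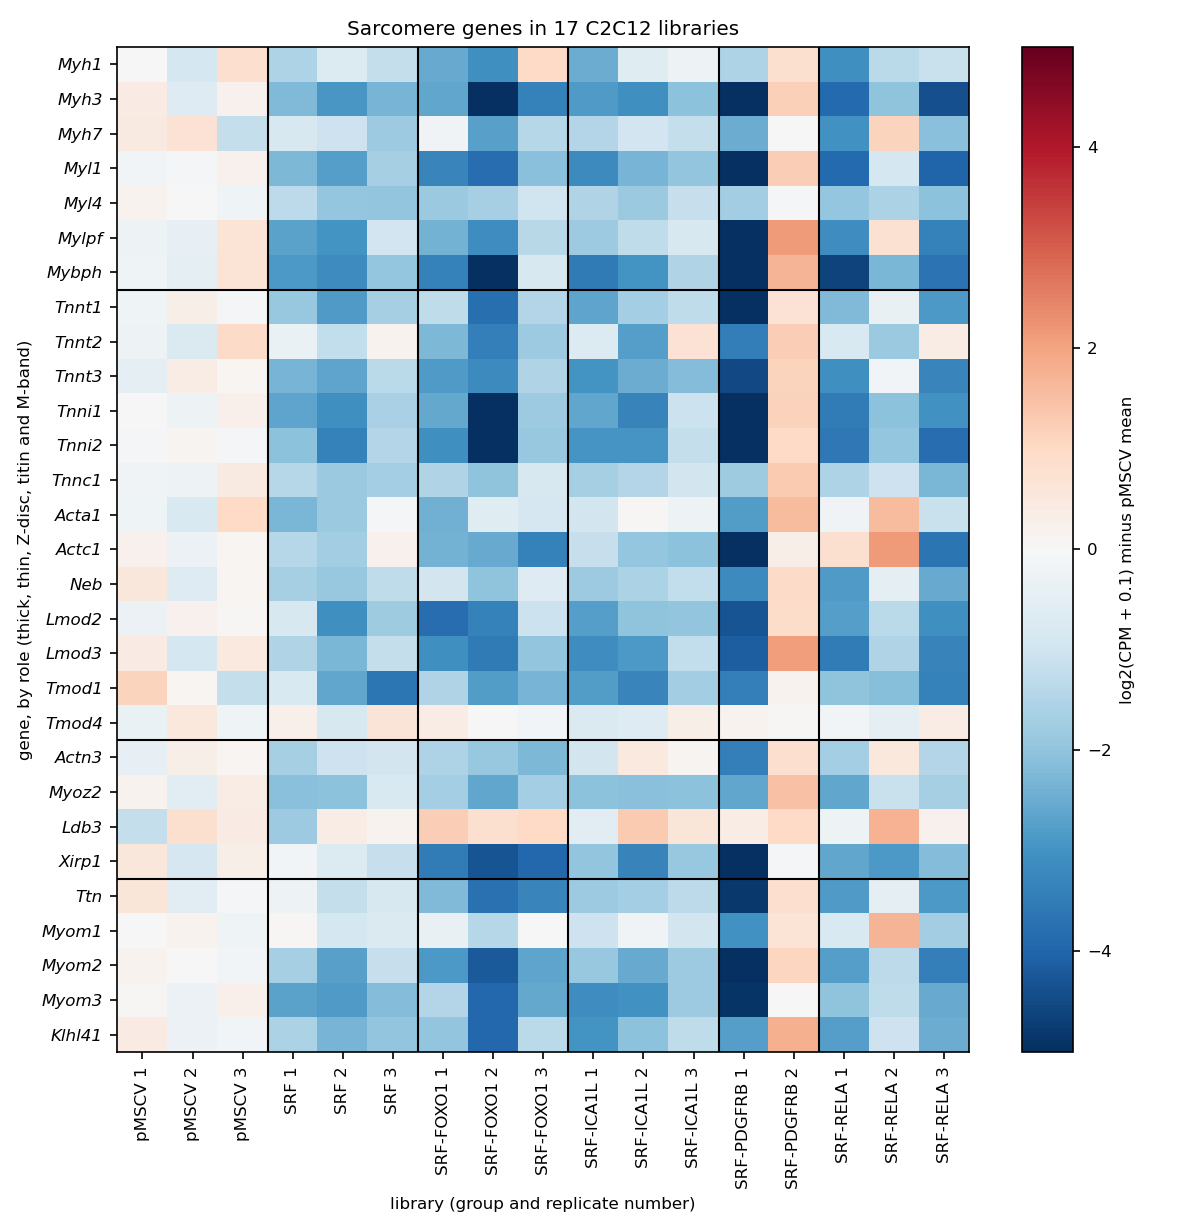
Level of each of the 29 sarcomere genes (rows, by role) in each of 17 libraries (columns), as log2(CPM + 0.1) minus the mean of the 3 pMSCV libraries, with colours limited to the range from -5 to 5. The SRF columns and those of 3 fusions (SRF-RELA, SRF-ICA1L and SRF-FOXO1) are mostly blue, and SRF-PDGFRB replicate 1 is the darkest blue while replicate 2 is mostly red.

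In the control line all 29 genes were detected, at low levels. Summed over the 29 genes, the pMSCV libraries held 479 to 740 CPM. Per kilobase of exon, mean pMSCV levels were highest for Mylpf, the fast regulatory myosin light chain, at 59.6 CPM per kb, and Acta1, skeletal α-actin, at 40.0. Tnnc1, slow and cardiac troponin C, followed at 21.3, then Actn3, the fast-fibre α-actinin, at 14.5, and Myh3 at 11.1. The lowest were Myh1, a fast adult myosin heavy chain, at 0.131, Myoz2, the Z-disc protein calsarcin-1, at 0.157, and Myh7, the slow and cardiac myosin heavy chain, at 0.203. Myh1 and Myh7 had levels of at most 3.38 CPM in every library, so their ratios rest on few counts. The other 14 listed genes (Myh2, Myh4, Myh8, Myl2, Myl3, Tnnc2, Mybpc1, Mybpc2, Actn2, Tcap, Myoz1, Smpx, Myot and Myoz3) have no row in the table and were not analysed here. Every row of the table reaches 10 counts in at least 3 libraries, so the 29 are the listed genes that passed such a filter and do not stand for all 43. Myoz2 reached 10 counts only in pMSCV and SRF-PDGFRB libraries. Such a filter therefore favours a lower Myoz2 level in the other groups, which is no separate evidence of a decrease. It stays in the counts of the 29 below. Reads of near-identical genes (Acta1 and Actc1, or the myosin heavy chains) may have been shared in counting.

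Most sarcomere genes had lower levels in the SRF line. This comparison and those of the fusions with pMSCV share the 3 pMSCV libraries. In all 3 SRF libraries, 18 of 29 genes were lower than in any pMSCV library, against 5.15% of all genes, and none was higher in all 3, against 4.02% of all genes. They included Myh3, Myl1, Mylpf, the troponins other than Tnnt2, nebulin (Neb) and the M-band genes Myom2 and Myom3. The summed level was 179 to 320 CPM. The median log2 fold change over the 29 genes was -1.74, against -0.02 for all genes, and 28 of 29 were negative. None of the 29 passed edgeR's quasi-likelihood test, whose smallest adjusted p among them was 0.99 and which called 0.00664% of all genes. Of the 29, 6 were lower and 0 higher at an unadjusted p under 0.05, against 2.14% and 1.20% of the table. DESeq2 called 1 of the 29, Myl4, lower, against 0.0133% of all genes called lower. In these bulk samples, fewer cells that express a gene and less RNA per cell cannot be told apart.

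SRF-FOXO1 libraries summed to 120 to 192 CPM over the 29 genes. Here 22 of 29 genes were lower in every library than in any pMSCV library, against 11.6% of all genes. Ldb3, the Z-disc protein cypher, was the 1 gene of 29 that was higher in every library, against 11.4% of all genes. The median log2 fold change was -2.40, and -2.28 with Myoz2, whose counts there did not exceed 3 in any library, set to its bound (at least 3.97-fold lower). The count filter favours that direction for Myoz2. None of the 29 was called, against 0.71% of all genes called and 0.352% called lower. At an unadjusted p under 0.05, 18 were lower and 0 higher, against 10.6% and 10.3% of the table. The smallest adjusted p values from edgeR were 0.0531 for Xirp1, an actin-binding repeat protein of muscle attachment sites, with a log2 fold change of -4.07 (SE 0.94), and 0.0675 for Myl4, -1.48 (SE 0.39). Without pMSCV replicate 2, Xirp1 was called (-4.39, SE 0.98, adjusted p = 0.0461), with 1.06% of all genes called lower. In a fit without the SRF-PDGFRB libraries, added after the data were seen, 7 genes fell (Ttn, Myom3, Lmod3, Myom2, Xirp1, Myh3 and Myl4), against 2.33% of all genes called lower. DESeq2 also called 7 lower, against 4.65% of all genes. The fit without SRF-PDGFRB called 0 of 28 in SRF, SRF-ICA1L and SRF-RELA against pMSCV, and 0.00669%, 0.0% and 0.0% of all genes. Its smallest edgeR adjusted p values among them were 0.529, 0.213 and 0.0798, where the fit of all 17 libraries gave 0.99, 0.662 and 0.288.

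SRF-ICA1L libraries held 187 to 349 CPM summed over the 29 genes. In every one of them 21 of the 29 genes were lower than in any pMSCV library, against 5.54% of all genes, and none was higher in every one, against 4.67%. The median log2 fold change was -1.79, and Myoz2, at or under the floor, was at least 3.87-fold lower, a direction that the count filter favours. With group alone in the fit, edgeR called 0 of the 29 and 0.0% of all genes, with 9 lower and 0 higher at an unadjusted p under 0.05, against 3.27% and 2.95%. DESeq2 called Myl4 lower, with 0.133% of all genes. Same-numbered libraries of SRF-RELA, SRF-ICA1L, SRF and pMSCV moved together, and with replicate number as a block in those 12 libraries 6 of the 28 genes tested fell, against 1.65% of all genes called lower. These were Myom3 (-2.82, SE 0.47), Mybph (-2.71, SE 0.54), Myh3 (-2.67, SE 0.60), Xirp1 (-2.38, SE 0.33), Tnni1 (-2.25, SE 0.50) and Myl4 (-1.48, SE 0.25), with edgeR adjusted p values from 0.0086 to 0.047. Mybph encodes myosin-binding protein H, and Tnni1 slow troponin I. Without the block, those 12 libraries gave 0 of 28 called and 0.0% of all genes, with a smallest edgeR adjusted p of 0.179.

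SRF-RELA libraries differed among themselves, with 170 to 614 CPM summed. Replicate 2 was above every pMSCV library in 7 of the 29 genes and below in 19. Replicates 1 and 3 were above in 1 and 0, and below in 25 and 26. These counts for single libraries have no share over all genes beside them, so they do not set replicate 2 apart from other genes. In all 3 libraries 17 genes were lower than in any pMSCV library, against 5.91% of all genes, and none was higher, against 5.19%. The median log2 fold change was -1.89, and -2.85 without replicate 2. With group alone in the fit, edgeR called 0 of the 29 and 0.0% of all genes, with 10 lower and 0 higher at an unadjusted p under 0.05, against 4.17% and 3.88%. DESeq2 called Myl4 lower, with 0.266% of all genes. In the 12 libraries with no block, edgeR called 0 of 28, with a smallest adjusted p of 0.055, and 0.0% of all genes. With the replicate block, 10 of 28 genes fell, against 3.29% of all genes called lower. The decreases were Mybph -3.45 (SE 0.58), Myh3 -3.11 (SE 0.63), Tnni2 -2.92 (SE 0.65), Tnni1 -2.76 (SE 0.52), Tmod1 -2.64 (SE 0.67) and Xirp1 -2.56 (SE 0.33). The remaining 4 were Myom2 -2.24 (SE 0.55), Myom3 -1.93 (SE 0.44), Myl4 -1.87 (SE 0.25) and Tnnc1 -1.54 (SE 0.33). Their edgeR adjusted p values ran from 0.0034 to 0.0454. Tnni2 is fast troponin I, and Tmod1 is a tropomodulin that caps the pointed ends of thin filaments. For SRF itself against pMSCV the same block called 0 of 28, against 0.0137% of all genes, with a smallest edgeR adjusted p of 0.086, for Myl4.

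**Figure D2:**
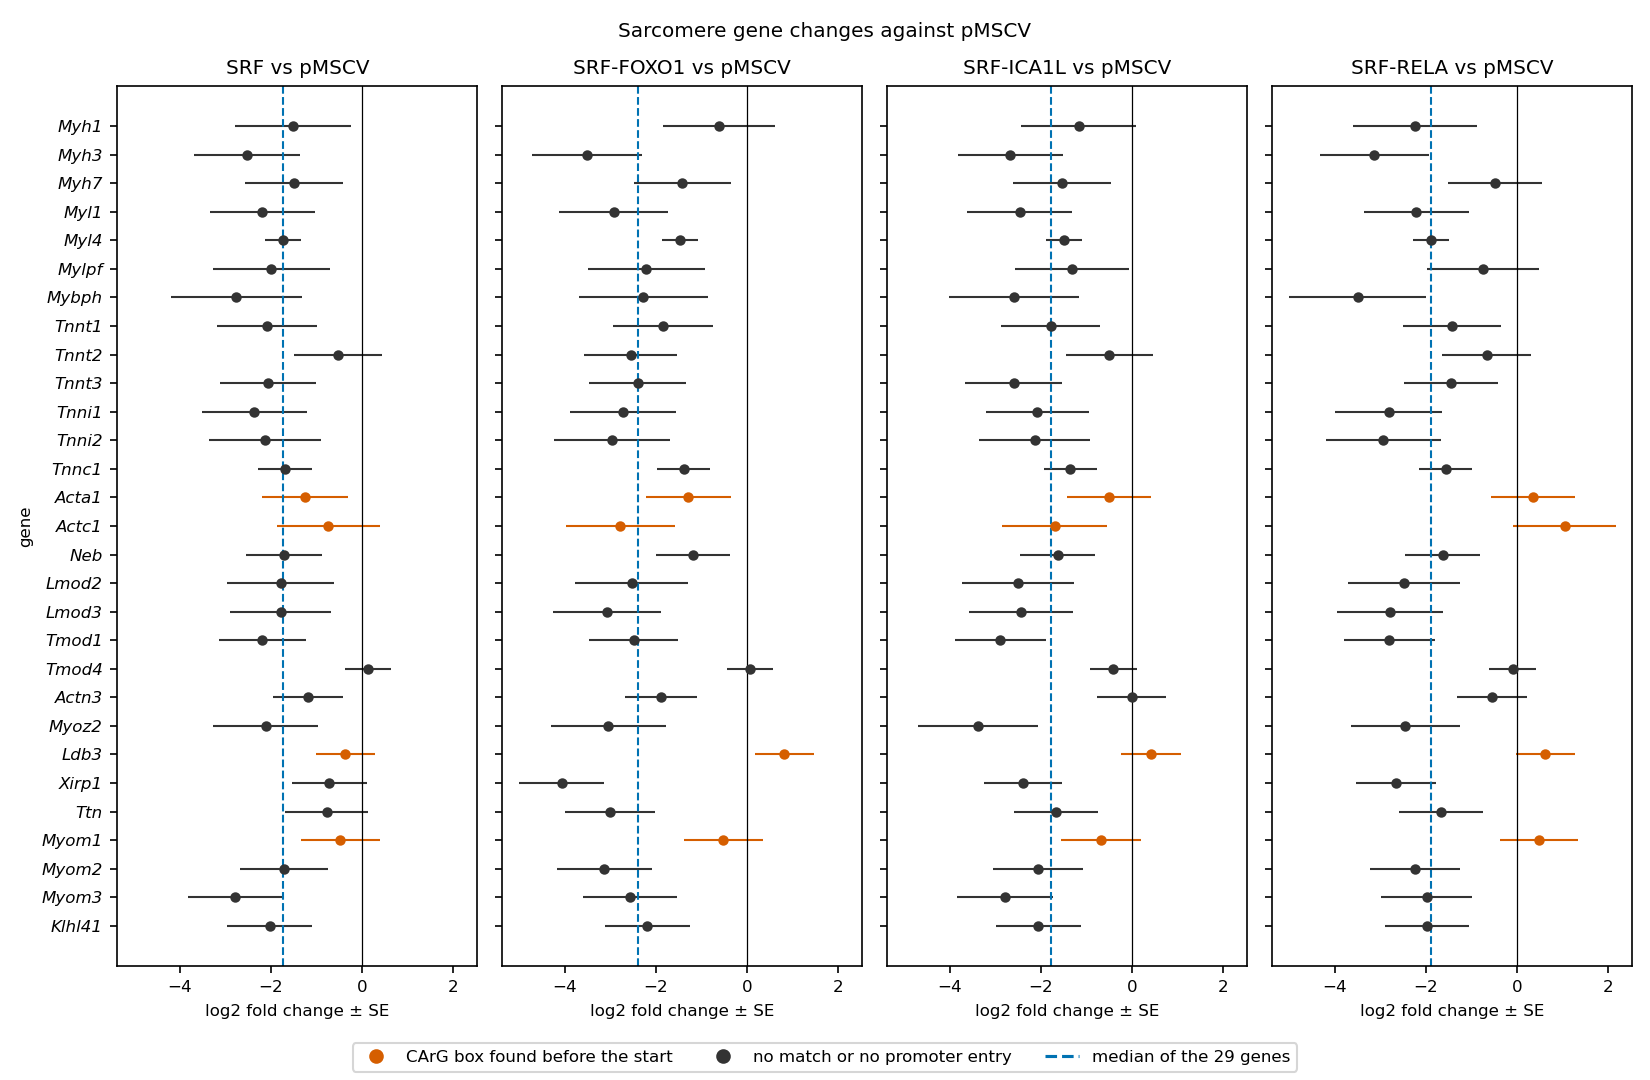
Log2 fold change against pMSCV (points, with bars of 1 SE from edgeR) for each sarcomere gene in 4 comparisons that share the 3 pMSCV libraries; the dashed line is the median of the 29 genes. Medians lie between -2.40 and -1.74, and the 4 genes with a CArG box (orange) are right of zero in the SRF-RELA panel, though negative without SRF-RELA replicate 2; the Myoz2 points of SRF-FOXO1 and SRF-ICA1L rest on groups at or under 3 counts and are no measure of size.

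For SRF-PDGFRB no direction held over both libraries. Replicate 1 was below every pMSCV library in 27 of 29 genes and replicate 2 was below in 0 and above in 22. For these single-library counts no share over all genes is given. No gene was lower or higher in both, against 7.23% and 8.67% of all genes, and the median log2 fold change was 0.07. EdgeR called 0 of the 29 and 0.0199% of all genes, and DESeq2 called 0. At an unadjusted p under 0.05, 0 were lower and 0 higher, against 3.11% and 4.59% of the table. Without replicate 2 the median was -4.95, with Xirp1 at -6.10 and Myom2 at -5.86. Without replicate 1 the median was 0.92. Each of these fits rests on 1 library that is assumed to vary like the other groups.

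Against SRF rather than pMSCV, few sarcomere genes differed in the fusion lines. SRF-ICA1L had a median log2 fold change of -0.02, SRF-RELA of -0.14 and SRF-FOXO1 of -0.30, and edgeR called 0 of the 29 in each, against 0.0%, 0.00664% and 0.00664% of all genes. Between SRF-FOXO1 and SRF, 4 genes were lower in every SRF-FOXO1 library (Tnnt2, Actc1, Ttn and Xirp1), against 18.3% of all genes, and Ldb3 was higher in every one, against 17.1%. These shares of the 29 are below those of all genes. Same-numbered libraries of these groups correlated weakly (r from 0.22 to 0.33), so taking them as pairs is uncertain. With them as pairs, 4 of the genes tested fell, against 0.824% of all genes called lower. These were Xirp1 (-3.31, SE 0.26), Ttn (-2.31, SE 0.18), Tnnt2 (-2.03, SE 0.15) and Myom2 (-1.41, SE 0.22), with edgeR adjusted p values from 0.0256 to 0.0495. Without SRF-FOXO1 replicate 3 the median was -1.03, with 11 genes lower and 1 higher without overlap, against 22.4% and 22.0% of all genes.

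Xirp1 and Ttn were the genes lower in every SRF-ICA1L library than in any SRF library, 2 of 29, against 3.20% of all genes. Xirp1 was the 1 gene lower in every SRF-RELA library, against 5.04%, and fell with the replicate block (-1.95, SE 0.33, edgeR adjusted p = 0.036; 0.157% of all genes called lower). At an unadjusted p under 0.05 without the block, 2 genes were lower for SRF-FOXO1 (8.11% of the table) and 0 higher (11.1%). For SRF-ICA1L these were 0 (0.319%) and 0 (1.24%), and for SRF-RELA 1 (0.697%) and 0 (2.51%). DESeq2 called Xirp1 lower in SRF-FOXO1, where it called 1.27% of all genes lower, and none of the 29 in the other two. The SRF-RELA median was -1.01 without its replicate 2, with 13 genes lower without overlap, against 9.2% of all genes, and the SRF-ICA1L median was -0.57 without its replicate 3. SRF-PDGFRB against SRF had a median of 1.73, and of -3.35 without its replicate 2. EdgeR called 0 of the 29 there, against 0.0531% of all genes, with 8 higher and 0 lower at an unadjusted p under 0.05 (3.52% and 1.51% of the table), and DESeq2 called 0.

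Between fusion lines, edgeR called 0 of the 29 in any of 6 comparisons, and DESeq2 called 0. The called share of all genes in them was at most 0.0332% by edgeR and 0.199% by DESeq2. At an unadjusted p under 0.05, SRF-FOXO1 had 14 lower than SRF-PDGFRB (where 320 of all 15062 genes were lower), 1 lower than SRF-ICA1L (2.88% of the table) and 1 lower than SRF-RELA (1.12%). SRF-ICA1L had 7 lower than SRF-PDGFRB (1.21%) and 1 lower than SRF-RELA (0.106%), and SRF-PDGFRB had 10 higher than SRF-RELA (1.57%). Among these, Actc1 stood at -3.82 (SE 1.25) in SRF-FOXO1 against SRF-RELA (edgeR adjusted p = 0.965). Lmod3 stood at -4.07 (SE 1.27) in SRF-FOXO1 against SRF-PDGFRB (edgeR adjusted p = 0.999). Both overlapped, as SRF-RELA ran from 0.793 to 49.5 CPM for Actc1 and SRF-PDGFRB had 0.0918 and 14.1 for Lmod3. In each comparison with SRF-PDGFRB, 0 of the 29 were lower and 0 higher without overlap, against 4.87% to 7.91% of all genes in a direction. Without SRF-PDGFRB replicate 1, the SRF-FOXO1 against SRF-PDGFRB log2 fold changes were -3.84 for Xirp1, -4.17 for Myom2, -2.67 for Tnnc1 and -5.05 for Lmod3. That fit rests on 1 SRF-PDGFRB library, so its calls are not given.

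Among thick filament genes, 7 of 14 were measured and all 7 had negative log2 fold changes against pMSCV in each group other than SRF-PDGFRB. Myl4, the embryonic and atrial essential light chain (chr11:104550663-104595753, GRCm38), had the smallest p of the 29 in the SRF, SRF-RELA and SRF-ICA1L comparisons with pMSCV. Its levels were 14.9, 13.2 and 11.2 CPM in pMSCV and 5.13, 3.34 and 3.27 in SRF. They were 3.49, 4.03 and 6.56 in SRF-FOXO1, 4.53, 3.57 and 5.81 in SRF-ICA1L, and 3.33, 4.24 and 3.03 in SRF-RELA. All 12 of these values lay below the pMSCV libraries, while SRF-PDGFRB had 3.81 and 12.5. The log2 fold changes were -1.74 (SE 0.40), -1.48 (SE 0.39), -1.50 (SE 0.39) and -1.89 (SE 0.40), in that order.

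Mylpf, the thick filament gene with the highest mean CPM over the 17 libraries, spread far more. In pMSCV alone Myh3 had the higher mean, 67.2 CPM against 63.3 for Mylpf. Mylpf stood at 49.3, 44.7 and 95.9 CPM in pMSCV, and at 9.36, 7.36 and 31.0 in SRF. SRF-FOXO1 had 11.5, 6.80 and 22.9, SRF-ICA1L 16.9, 24.9 and 34.1, SRF-PDGFRB 1.47 and 261, and SRF-RELA 6.86, 100 and 5.69. SRF, SRF-FOXO1 and SRF-ICA1L lay below pMSCV in every library, and replicate 2 of SRF-PDGFRB and of SRF-RELA lay above it.

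Myh3 (chr11:67078300-67102291), named after its values were seen, is the myosin heavy chain of newly formed muscle. It stood at 86.1, 41.0 and 74.7 CPM in pMSCV, and at 13.8, 8.37 and 12.9 in SRF. SRF-FOXO1 had 10.5, 0.938 and 6.11, SRF-ICA1L 8.86, 7.59 and 15.3, and SRF-RELA 4.21, 15.8 and 2.98. None of these overlapped pMSCV; SRF-PDGFRB had 0.643 and 146.

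Of the thin filament genes 13 of 14 were measured (troponins, actins, nebulin, leiomodins and tropomodulins). Tnnc1 stood at 18.9, 18.2 and 29.2 CPM in pMSCV, at 8.04, 5.85 and 6.49 in SRF, at 7.45, 5.30 and 12.5 in SRF-FOXO1 and at 6.69, 7.86 and 11.4 in SRF-ICA1L. SRF-RELA had 7.44, 10.5 and 4.38, and SRF-PDGFRB 6.15 and 54.3. All but the last value lay below pMSCV. Tnni1, Tnni2, Tnnt1 and Tnnt3, the slow and fast troponins I and T, had log2 fold changes from -2.37 to -2.06 in SRF, with SEs from 1.05 to 1.22.

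Tnnt2, cardiac troponin T, is also made in developing skeletal muscle. It stood at 39.9, 28.8 and 93.2 CPM in pMSCV, at 37.7, 20.3 and 54.1 in SRF, at 29.4, 6.97 and 78.0 in SRF-ICA1L, and at 28.2, 13.1 and 60.7 in SRF-RELA. Replicate 3 was the highest and replicate 2 the lowest in each of these 4 groups. In SRF-FOXO1 it stood at 9.89, 4.41 and 13.3, below every pMSCV and SRF library, and in SRF-PDGFRB at 4.27 and 111.

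Skeletal actin, Acta1 (chr8:123891769-123894751), overlapped pMSCV in every group. It stood at 46.2, 31.2 and 107 CPM in pMSCV, at 10.8, 14.9 and 51.9 in SRF, and at 10.2, 35.6 and 29.6 in SRF-FOXO1. SRF-ICA1L had 28.5, 56.1 and 44.6, SRF-PDGFRB 7.67 and 159, and SRF-RELA 47.8, 160 and 24.9. The log2 fold change was -1.25 (SE 0.94) in SRF and 0.34 (SE 0.92) in SRF-RELA, each smaller than 1.5 times its SE.

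Cardiac actin, Actc1 (chr2:114047282-114053548), is the form made early in skeletal muscle. It stood at 13.0, 9.17 and 11.9 CPM in pMSCV and at 4.13, 3.34 and 12.9 in SRF. SRF-FOXO1 had 2.09, 1.88 and 0.981, and SRF-ICA1L 4.96, 2.86 and 2.61, below pMSCV in every library. SRF-RELA had 19.6, 49.5 and 0.793, a 62.5-fold range over its libraries, and SRF-PDGFRB 0.184 and 13.7.

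Tmod1 stood at 10.6, 5.20 and 2.06 CPM in pMSCV, 2.86, 0.731 and 0.305 in SRF, 1.66, 0.61 and 0.892 in SRF-FOXO1 and 0.626, 0.402 and 1.37 in SRF-ICA1L. SRF-RELA had 1.13, 1.05 and 0.373, and SRF-PDGFRB 0.367 and 5.56. SRF-FOXO1, SRF-ICA1L and SRF-RELA were below pMSCV in every library. Its relative Tmod4 had log2 fold changes from -0.41 to 0.12 against pMSCV, and never above 0.915 CPM. The leiomodins Lmod2 and Lmod3, which nucleate thin filaments, had log2 fold changes from -3.08 to -1.79 in the groups other than SRF-PDGFRB. Lmod3 stood at 4.43, 1.72 and 4.58 CPM in pMSCV, at 1.09, 0.594 and 1.39 in SRF and at 0.305, 0.188 and 0.758 in SRF-FOXO1. It had 0.289, 0.357 and 1.33 in SRF-ICA1L, 0.0918 and 14.1 in SRF-PDGFRB, and 0.196, 1.10 and 0.233 in SRF-RELA. All of these but SRF-PDGFRB replicate 2 were below pMSCV. Neb, the giant ruler protein of the thin filament, had log2 fold changes from -1.71 to -1.18 in the same groups.

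Of the Z-disc genes 4 of 9 were measured. Xirp1 (chr9:120013755-120023598) had the largest log2 fold change of the 29 against SRF in SRF-FOXO1, SRF-ICA1L and SRF-RELA. It stood at 38.7, 14.6 and 32.6 CPM in pMSCV and at 24.1, 16.4 and 11.8 in SRF, which overlap. SRF-FOXO1 had 2.22, 1.22 and 1.65, SRF-ICA1L 6.74, 2.54 and 7.05, and SRF-RELA 4.31, 3.51 and 5.78, all below every pMSCV and SRF library. SRF-PDGFRB had 0.413 and 24.6. Against SRF the log2 fold changes were -3.35 (SE 0.91), -1.68 (SE 0.84) and -1.94 (SE 0.85), with edgeR adjusted p values of 0.179, 1.0 and 0.975.

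Ldb3 (chr14:34526603-34588682) stood at 7.98, 32.4 and 24.8 CPM in pMSCV, at 5.23, 24 and 21.3 in SRF, at 12.7, 45.7 and 28.2 in SRF-ICA1L, and at 15.5, 62.8 and 21.8 in SRF-RELA. Replicate 1 was the lowest and replicate 2 the highest in each of these 4 groups. SRF-FOXO1, at 44.0, 32.8 and 37.2, was above every pMSCV and SRF library, and SRF-PDGFRB had 23.8 and 36.9. The log2 fold change of SRF-FOXO1 was 0.81 (SE 0.65) against pMSCV and 1.17 (SE 0.65) against SRF, with edgeR adjusted p values of 0.505 and 0.323.

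Actn3 stood at 31.4, 50.9 and 44.0 CPM in pMSCV, at 12.9, 20.3 and 22.0 in SRF and at 14.2, 11 and 8.65 in SRF-FOXO1, with no overlap with pMSCV. SRF-ICA1L had 21.7, 58.6 and 44.9, SRF-RELA 12.7, 59.0 and 14.7, and SRF-PDGFRB 3.81 and 74.3. Its log2 fold change in SRF-ICA1L was -0.01 (SE 0.76), against -1.19 (SE 0.77) in SRF. Myoz2 stood at 0.599, 0.309 and 0.701 CPM in pMSCV and at 0.0454, 0.0457 and 0.261 in SRF. It had at most 0.0892 in SRF-FOXO1, 0.183 in SRF-RELA and 0.0481 in SRF-ICA1L, and 0 and 1.60 in SRF-PDGFRB.

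Of titin, the M-band and assembly genes 5 of 6 were measured. Titin, Ttn, stood at 108, 50.1 and 68.4 CPM in pMSCV and at 60.2, 31.4 and 40.8 in SRF, which overlap. SRF-FOXO1 had 15.5, 5.39 and 7.18 and SRF-ICA1L 20.5, 22.3 and 28.6, both below every pMSCV and SRF library. SRF-RELA had 9.89, 51.3 and 9.84, and SRF-PDGFRB 2.43 and 127. The log2 fold changes against pMSCV were -0.78 (SE 0.91) in SRF and -3.01 (SE 0.98) in SRF-FOXO1 (edgeR adjusted p = 0.99 and 0.113).

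The 3 myomesins cross-link thick filaments at the M-band. Myom2 and Myom3 had log2 fold changes against pMSCV from -3.13 to -1.71 in the groups other than SRF-PDGFRB. Myom1 had values from -0.68 to 0.48, with an SE of at least 0.86. Myom1 stood at 3.41, 3.79 and 2.90 CPM in pMSCV, at 3.45, 1.78 and 2.0 in SRF, at 2.57, 1.17 and 3.30 in SRF-FOXO1 and at 1.59, 2.95 and 1.74 in SRF-ICA1L. It had 0.321 and 5.47 in SRF-PDGFRB and 1.96, 11.2 and 0.933 in SRF-RELA, and overlapped pMSCV in each group. Klhl41, a Kelch protein that stabilises nebulin, stood at 6.64, 3.97 and 4.49 CPM in pMSCV, at 1.59, 0.914 and 1.18 in SRF, and at 1.18, 0.234 and 1.87 in SRF-FOXO1. It had 0.637, 2.37 and 0.793 in SRF-RELA, 0.53, 1.12 and 1.97 in SRF-ICA1L, and 0.643 and 17.2 in SRF-PDGFRB. All of these but SRF-PDGFRB replicate 2 were below pMSCV.

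**Figure D3:**
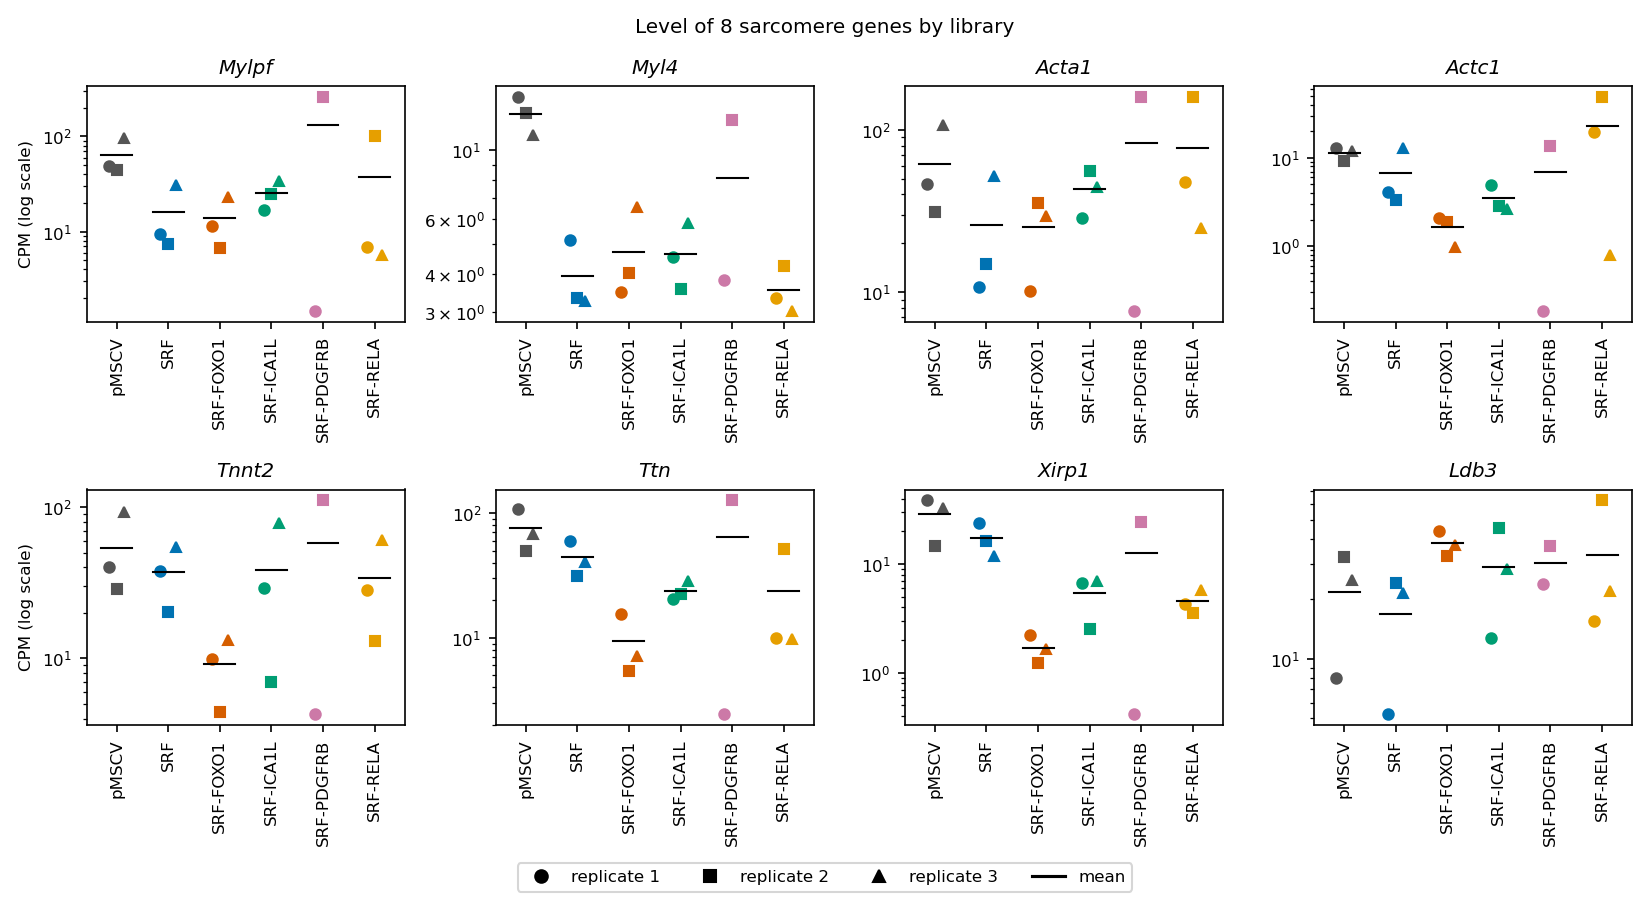
Level of 8 sarcomere genes (CPM, log axis) by group, with a symbol for each library by replicate number and a line at the group mean. Myl4 lies below the 3 pMSCV libraries in every group other than SRF-PDGFRB, Xirp1 is lower in SRF-FOXO1, SRF-ICA1L and SRF-RELA than in SRF, and Ldb3 is highest in replicate 2 of every group other than SRF-FOXO1.

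Developmental, slow and fast isoforms all had negative medians in these groups. Against pMSCV in SRF, the median log2 fold change was -1.24 over 4 developmental isoforms, -2.09 over 5 slow or cardiac isoforms and -2.03 over 6 fast isoforms. In SRF-FOXO1 these were -2.66, -1.85 and -2.30, in SRF-ICA1L -1.60, -1.79 and -1.73, and in SRF-RELA -1.28, -1.57 and -1.83. The difference between the classes was not tested.

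The 4 genes with a CArG box were Acta1, Actc1, Ldb3 and Myom1, and 18 other members had a promoter entry without one. In SRF-RELA against pMSCV their log2 fold changes were 0.34, 1.04, 0.62 and 0.48, with SEs from 0.65 to 1.12, and the other 18 were all negative, with a median of -1.98. In SRF the 4 had a median of -0.61 and the other 18 of -2.01, in SRF-ICA1L -0.60 and -1.92, and in SRF-FOXO1 -0.90 and -2.38. The 5 genes with a MEF2 site had medians of -2.03 in SRF, -1.98 in SRF-RELA, -2.06 in SRF-ICA1L and -2.56 in SRF-FOXO1. SRF-RELA replicate 2 was the highest of all 17 libraries for each of the 4 CArG box genes and for Myh7. Without it the SRF-RELA log2 fold changes of all 4 turned negative, at -0.76 (SE 0.99) for Acta1, -0.15 (SE 1.20) for Actc1, -0.22 (SE 0.65) for Ldb3 and -1.22 (SE 0.82) for Myom1. The grouping was made after the values were seen, none of the 4 was called, and it is given with no test.

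Other genes of muscle contraction, outside the 43, also had negative medians. Of 36 listed (excitation-contraction coupling, tropomyosins, desmin, acetylcholine receptor and myogenic factors), 32 were in the table. Their median log2 fold change relative to pMSCV was -2.18 for SRF-FOXO1, -1.88 for SRF-RELA, -1.24 for SRF-ICA1L, -1.06 for SRF and -0.21 for SRF-PDGFRB. In edgeR with group alone none was called in any of these. With the replicate block, 17 of 32 fell in SRF-RELA, 13 in SRF-ICA1L and 1 in SRF. Of all genes, 3.29%, 1.65% and 0.00683% were called lower there, in that order. In SRF-RELA 1 of the 32, Tpm2, rose, where 6.48% of all genes were called in either direction. Myog and Myod1 were among those that fell with the block in SRF-ICA1L and SRF-RELA. With group alone, Myog had log2 fold changes of -3.13 (SE 1.33) in SRF-RELA, -2.52 (SE 1.29) in SRF-FOXO1 and -2.20 (SE 1.27) in SRF-ICA1L. In SRF it stood at 2.59, 1.97 and 6.23 CPM, where pMSCV had 11, 13.6 and 22.4.

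Non-muscle relatives of the sarcomere proteins had levels near those of pMSCV. The 14 measured of 15 (such as cytoplasmic actins and non-muscle myosin) summed to 9500 to 14400 CPM, and their mean log2 level lay within -0.37 and 0.32 of the pMSCV mean in every library. None was called against pMSCV. The 12 cell cycle genes summed to 1270 to 4060 CPM in pMSCV and 1850 to 4240 in the other groups, and none of them was called.

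**Figure D4:**
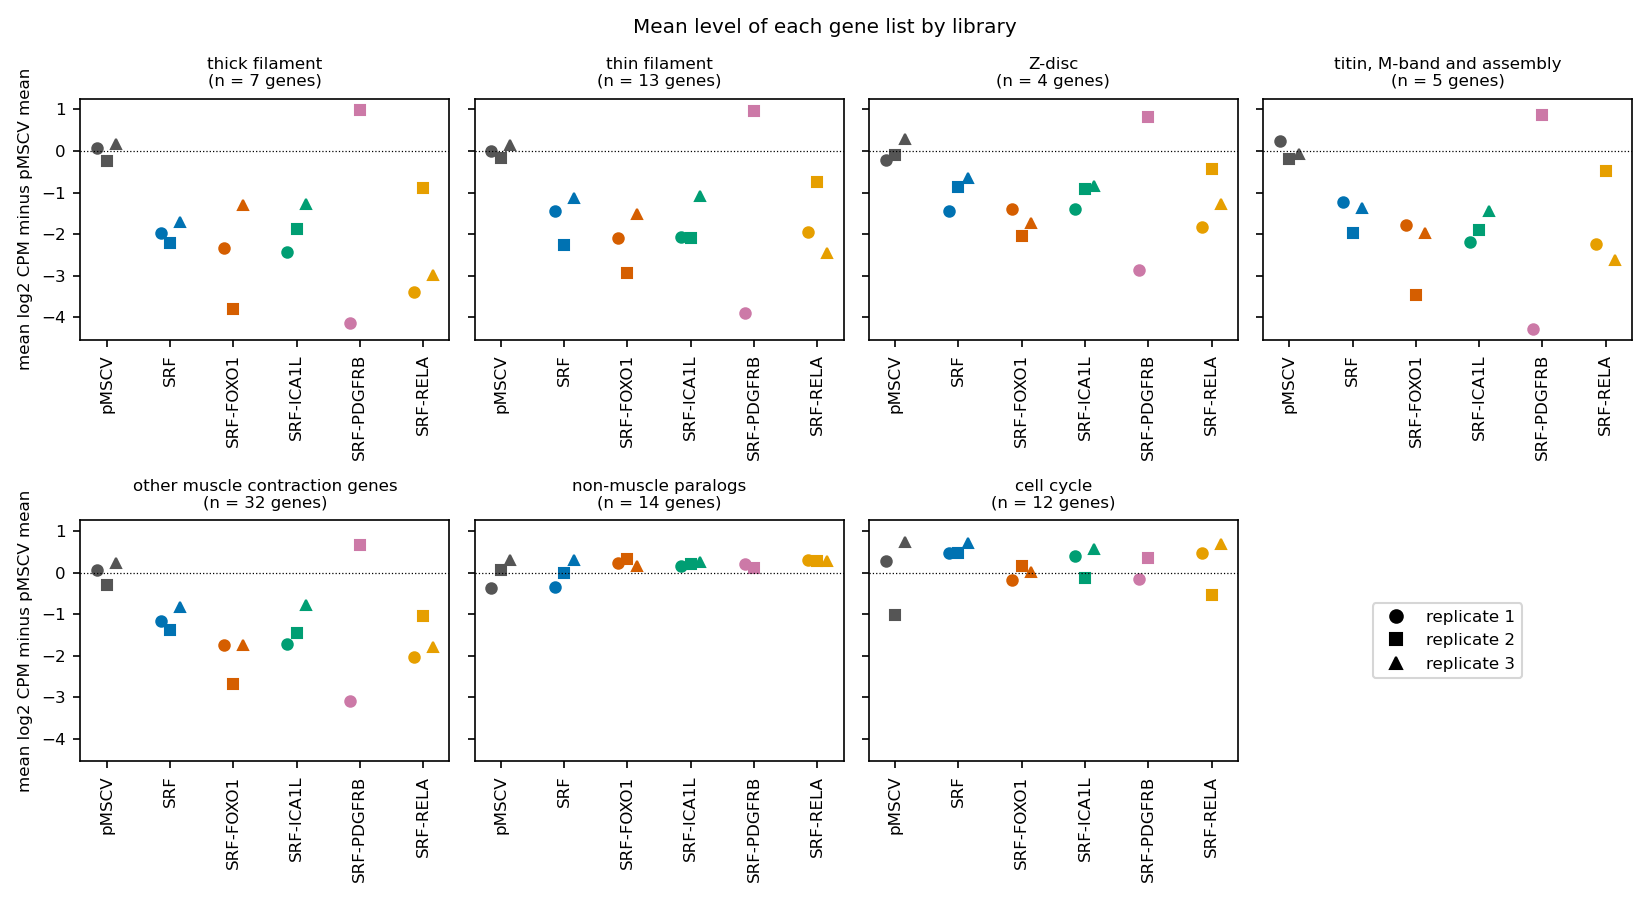
Mean log2 CPM of each gene list in each library, less the pMSCV mean, by group, with symbols for the replicate number. Each sarcomere role and the other muscle genes lie below zero in every library of the groups other than pMSCV and SRF-PDGFRB; in these panels SRF-PDGFRB replicate 1 is the lowest and replicate 2 the highest, and non-muscle paralogs stay within -0.37 and 0.32.

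Markers of other cell types differed between groups beside the sarcomere genes, and their part in the results was not tested. The 6 smooth muscle markers summed to 275 to 2540 CPM in pMSCV, 1040 to 4040 in SRF, 2010 to 3070 in SRF-FOXO1, 2050 to 2690 in SRF-ICA1L, 1640 to 2030 in SRF-PDGFRB and 2000 to 3520 in SRF-RELA. With the replicate block 1 of 5 tested rose in SRF-ICA1L against pMSCV (Tagln) and 2 in SRF-RELA (Tagln and Lmod1). Of all genes, 2.99% and 6.48% were called there in either direction. The 7 markers of undifferentiated myoblasts summed to 647 to 1060 CPM in pMSCV, 237 to 471 in SRF-FOXO1, 340 to 701 in SRF-ICA1L, 406 to 700 in SRF-RELA, 466 to 706 in SRF-PDGFRB and 481 to 662 in SRF. With the block, Cdh15 fell in SRF-ICA1L against pMSCV, Myf5, Cdh15 and Msc fell in SRF-RELA against pMSCV, and Cdh15 fell in SRF-RELA against SRF. Of all genes, 1.65%, 3.29% and 0.157% were called lower in these comparisons. Myf5 and Cdh15 are also in the list of other muscle contraction genes above, so these calls are counted in both. Fibroblast markers (5 of 6 in the table) summed to 211, 848 and 196 CPM in pMSCV and to 862, 377 and 2430 in SRF-FOXO1. They summed to 257 to 333 in SRF, 339 to 606 in SRF-ICA1L, 309 to 414 in SRF-PDGFRB and 418 to 726 in SRF-RELA. Macrophage markers (3 of 5) summed to 3.83 to 7.19 CPM in pMSCV and 10.1 to 12.6 in SRF-FOXO1, which do not overlap, and to 2.49 to 11.9 in the other groups. Of all genes, 11.4% were higher without overlap in SRF-FOXO1 than in pMSCV. Among the macrophage markers, Lyz2 rose with the block in SRF-RELA, both relative to SRF and relative to pMSCV, where 0.656% and 6.48% of all genes were called. Adipocyte markers (3 of 5) summed to 25.3 to 57.4 CPM and osteoblast markers (2 of 5) to 60.6 to 108.

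A smaller share of sarcomere genes than of all genes was called for replicate number. Within groups these genes spread more between libraries, with median ratios from 2.02 (all genes 1.68) in pMSCV to 4.65 (1.59) in SRF-RELA. A smaller share called is therefore no measure of a smaller difference between replicates. Over the 12 paired libraries (SRF-RELA, SRF-ICA1L, SRF and pMSCV), with group in the fit, edgeR called 4 of 28 sarcomere genes for replicate number, against 52.0% of all genes. These were Ldb3 (adjusted p = 0.000507), Tnnt2 (0.00107), Actn3 (0.0141) and Xirp1 (0.0477). Actn3 was lowest in replicate 1 in all 4 groups, and Xirp1 was lowest in replicate 2 in 3 of 4. Without SRF-RELA replicate 2, 8 sarcomere genes were called, against 36.9% of all genes, with Mybph, Tnni1, Myh3, Lmod3 and Mylpf among them and Xirp1 not.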

How the data were processed

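RNA from C2C12 lines was sequenced as polyadenylated, stranded libraries, per the labels' protocols. The authors deposited raw counts per gene in 1 table; FastQC 0.11.8, Trimmomatic 0.39, HISAT2 2.12.1, featureCounts (Subread 2.0.0) and build GRCm38 are named in the submitters' processing notes. The annotation, strand setting and treatment of multi-mapping reads are not given in the sources used here. Groups and replicate numbers came from the titles.

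Counts were scaled by TMM and fitted with edgeR 4.0.16 (limma 3.58.1, R 4.3.3): robust quasi-likelihood tests, all 17 libraries, group alone, edgeR's low-count filter (no gene lost), Benjamini-Hochberg over 15062 genes, called at an adjusted p under 0.05. SE is the log2 fold change over the square root of F. The biological coefficient of variation was 36.5%. A group at or under 3 counts per library gives bounds. DESeq2 1.42.0 and other settings were alternatives. The fits with group alone were tested on simulated counts. These had the same dispersion for every gene, below that of these data, and no replicate effect. That test therefore does not cover the spread of the sarcomere genes or the blocked fits. Exon lengths and coordinates are from GENCODE vM21.

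Same-numbered libraries of SRF-RELA, SRF-ICA1L, SRF and pMSCV correlated in their deviations from group means (r from 0.392 to 0.789 over 18 pairs; different numbers -0.585 to 0.114 over 36), and were taken as paired. SRF-FOXO1 was less clear, with r over same-numbered libraries of 0.22 to 0.33 with SRF and -0.195 to 0.17 with pMSCV. It was 0.0714 to 0.501 with SRF-ICA1L and -0.013 to 0.454 with SRF-RELA, where different numbers reached 0.345 and 0.421. Whether its replicates pair with those of the other groups is therefore uncertain. Genes with per-library values are, by rule, the 2 with the smallest p in each comparison, the most abundant of each role, Acta1, Actc1 and the 4 with the smallest p for replicate number; Myh3 was added. The genes and lists were chosen with earlier results of these data known.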

Additional observations from a re-analysis of the deposited data

How the results depend on the processing

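With no single library left out, all 75 medians over the sarcomere genes lay within the replicate spread of the reported value, a spread that is wide for SRF-PDGFRB. The SRF-PDGFRB median against pMSCV, 0.07, turned to -1.30 with the replicate block in the 2 groups and to -0.14 with it over all 17 libraries, and against SRF it went from 1.73 to 0.46 with the block in the 2 groups. The SRF-RELA median against SRF, -0.14, was 0.05 with genes of at least 1 CPM. The number called was less stable. For SRF-FOXO1 against pMSCV it was 0, but 1 with genes of at least 1 CPM, 1 with only the 2 groups in the fit, 2 with a replicate block over all 17 libraries, 7 with DESeq2 and 7 without the SRF-PDGFRB libraries (this one added after seeing the data). For SRF-FOXO1 against SRF it was 1 with DESeq2, 2 with only the 2 groups, 4 with the replicate block in those groups and 1 without the SRF-PDGFRB libraries. DESeq2 called 1 in SRF, 1 in SRF-ICA1L and 1 in SRF-RELA against pMSCV. The replicate block in the 12 libraries gave 6 in SRF-ICA1L and 10 in SRF-RELA against pMSCV and 1 in SRF-RELA against SRF, and changed no other call. A replicate block over all 17 libraries did not change the number called in these comparisons, so those calls depend on the choice of libraries as well as on the block. Over all 17 libraries the block called 0 genes for replicate number, in place of 4. Scaling by the library total gave 1 gene that did not overlap between SRF-PDGFRB and SRF, in place of 0, with no share over all genes given. The cause was not tested.

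Leaving out 1 library gave 0 to 1 called in SRF-FOXO1 against pMSCV and 3 to 8 for replicate number. Where that left 1 SRF-PDGFRB library, calls are not given, as they rest on it. Medians ran from -4.95 to 0.92 (SRF-PDGFRB) and -2.85 to -1.66 (SRF-RELA) against pMSCV, and against SRF from -1.03 to -0.03 (SRF-FOXO1), -0.57 to 0.18 (SRF-ICA1L), -3.35 to 2.71 (SRF-PDGFRB) and -1.01 to 0.16 (SRF-RELA). Genes that did not overlap numbered 0 to 27 (SRF-PDGFRB against pMSCV). Against SRF they numbered 5 to 12 (SRF-FOXO1), 3 to 6 (SRF-ICA1L), 0 to 28 (SRF-PDGFRB) and 1 to 13 (SRF-RELA). Fewer libraries make overlap less likely for any gene. Without SRF-FOXO1 replicate 3, 22.4% of all genes were lower and 22.0% higher than in SRF without overlap. For SRF-RELA against SRF without SRF-RELA replicate 2, these shares were 9.2% and 9.22%. The other left-out counts have no share over all genes beside them, so they do not set the sarcomere genes apart. For SRF-PDGFRB against SRF, Klhl41 ran from -0.93 to 3.79 and Tnnc1 from -0.14 to 2.98, each reversed without SRF-PDGFRB replicate 2. Depth limits Myh1, Myh7, Myoz2, Lmod2 and Tmod4 most.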
